A study of Mus musculus with 15 samples.

Results

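The genes of the cytosolic ribosomal proteins were followed in 15 libraries of mouse germinal vesicle oocytes grown in vivo or in cultured follicles. Members were the protein-coding genes of the GENCODE vM21 annotation named Rpl or Rps with a number, plus Rplp0, Rplp1, Rplp2, Rpsa and similarly named paralogs, and 84 of the 55401 genes in the count files met this rule. They comprised 43 genes of the large subunit, 30 of the small subunit, 3 of the P-stalk and 8 paralogs, namely Rpl3l, Rpl7l1, Rpl10l, Rpl22l1, Rpl36al, Rpl39l, Rps27l and Rps27rt. A read was counted for 76 of the 84 members in every library. The exceptions were Rpl10l, Rpl15, Rpl29, Rpl34, Rpl37a, Rpl3l, Rpl7l1 and Rpl9, each listed at 0 in at least 1 library. The filter on low counts kept 83 members. Only Rpl3l, a paralog known from heart and skeletal muscle, was lost, with 48 counts in IVV replicate 3 and 0 in the other 14 libraries. The naming rule left out genes such as Rps3a1, Fau and Rack1, which also encode ribosomal proteins and are described beside the members.

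A cytosolic ribosome joins a large and a small subunit, each built from ribosomal RNA and a set of small basic proteins that are mostly present once per particle. Mammalian ribosomal protein mRNAs carry a 5' terminal oligopyrimidine (TOP) tract, through which mTOR signalling and the protein LARP1 set their translation. A growing oocyte stores ribosomes for the early embryo, and transcription stops near the end of growth, so the mRNA pool of a fully grown oocyte is a store.

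Each library held a pool of 6 oocytes from Kunming mice, an outbred strain, which the series describes as 12 to 14 days old, and was amplified by SMART-Seq2, a poly(A)-primed method without molecular identifiers. IVV oocytes came from follicles grown in vivo and were recovered by puncture of antral follicles (replicates 2, 3 and 4). IVG oocytes came from isolated preantral follicles cultured for 6 or 10 days, and IVG-NT oocytes from follicles cultured in the same way with added neurotrophin-4 (NT-4), a ligand of the receptor TRKB (replicates 1, 2 and 3 of each). No genetic change is named for any group, and all 15 libraries shared the strain, the pool size and the amplification. The labels do not tie the 3 libraries of a group to animals, so p-values measure only the spread between these libraries.

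Libraries differed in ways the groups do not explain. Total counts ran from 5954262 to 55593251, with IVG-NT day 6 replicates 1 and 2 the shallowest at 5954262 and 7125348. The annotated ribosomal RNA gene CT010467.1 took 12.5 to 37.9% of counts in 9 libraries, called rRNA-rich here, and 0.187 to 0.714% in the other 6, called rRNA-poor, a split by library content that is not one of the study's groups. The rRNA-rich libraries were IVV replicate 3 and replicates 1 and 2 of every in vitro group, so 2 of 3 IVV libraries but 1 of 3 in each in vitro group were rRNA-poor, and within the in vitro groups the kind of library and the replicate number cannot be told apart. Markers of oocytes were abundant: 20 of 20 were detected, with a summed level of 19933 to 38509 counts-per-million (CPM, computed here without the rRNA gene) over the 15 libraries. The 20 granulosa markers summed to 422 to 1921 CPM in rRNA-rich and 469 to 987 CPM in rRNA-poor libraries, and 5 of them (Serpine2, Col4a1, Nr5a2, Kitl and Gja1) were at 0 in no library, while the defining gene Amh was listed at 0 in 13 of 15. The most abundant were Serpine2 at up to 1385, Col4a1 at up to 247 and Grem1 at up to 239 CPM. The 10 theca and stroma markers stayed at or below 127 CPM in sum and the 10 macrophage markers at or below 79.3 CPM, with Cyp17a1 at 0 in 11 libraries and Adgre1 and C1qa each at 0 in 13. The most abundant genes of these lists were Myh11 at up to 100.2, C1qb at up to 77.4 and Csf1r at up to 65.2 CPM.

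The promoters of the members share features that the naming rule did not use. RefSeq promoter sequences (GRCm38.p6, 250 bases before to 50 after a start site) were matched by symbol for 64 of the 84 members. The letters CGGAAG, the core of binding sites of ETS factors such as GABPA, stood on either strand in 42 of these 64 (65.6%), against 18.8% of all 27025 genes with a promoter. A pyrimidine stretch CTTTC on the sense strand within 20 bases of the start, as in TOP tracts, was found for 20 members (31.2%) against 6.44% of all genes. TATAAA stood on either strand for 7 (10.9% against 15.7%). No searched motif contains another, and a match describes the sequence only. The motifs were also set against the comparison of library kinds described further on, a description with no test. CGGAAG stood in 35 of the 47 matched members called lower (74.5%) and in 7 of the 16 matched and tested members not called (43.8%). CTTTC hardly differed, with 15 of 47 (31.9%) and 5 of 16 (31.2%). TATAAA went the other way, with 4 of 47 (8.51%) and 3 of 16 (18.8%). A further searched motif, not named here, stood in 6 of 47 and 0 of 16. A stretch from 80 bases before to 20 after the annotated start is shown for 6 members. Rpl35, Rpl37 and Rps27l are among those that differed most between the kinds of library, Rps6 encodes the classic substrate of the S6 kinases, and Rpsa and Rpl4 are members that were not called. Capitals mark CTTTC and, as read on either strand, CGGAAG.
Rpl35: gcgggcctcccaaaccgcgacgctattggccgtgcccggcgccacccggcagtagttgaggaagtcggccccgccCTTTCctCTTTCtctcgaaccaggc
Rpl37: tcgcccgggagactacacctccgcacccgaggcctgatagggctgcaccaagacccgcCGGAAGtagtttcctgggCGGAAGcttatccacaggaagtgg
Rps27l: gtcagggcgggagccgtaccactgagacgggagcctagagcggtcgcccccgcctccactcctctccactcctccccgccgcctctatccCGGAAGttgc
Rps6: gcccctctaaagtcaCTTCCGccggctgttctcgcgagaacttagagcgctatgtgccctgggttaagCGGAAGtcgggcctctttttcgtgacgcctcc
Rpsa: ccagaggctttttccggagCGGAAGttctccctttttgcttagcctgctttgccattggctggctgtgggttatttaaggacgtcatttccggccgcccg
Rpl4: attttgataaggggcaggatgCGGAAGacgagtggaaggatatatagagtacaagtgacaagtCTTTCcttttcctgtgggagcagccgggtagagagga
The stretches lie at chr2:39005112-39005211 on the minus strand for Rpl35, chr15:5116533-5116632 on the plus strand for Rpl37, chr9:66946006-66946105 on the plus strand for Rps27l, chr4:86857348-86857447 on the minus strand for Rps6, chr9:120127686-120127785 on the plus strand for Rpsa and chr9:64173307-64173406 on the plus strand for Rpl4.

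The members together took a small and variable share of the counts outside the rRNA gene. In IVV oocytes the share was 3.56% and 3.70% in the rRNA-poor replicates 2 and 4 and 0.887% in the rRNA-rich replicate 3. IVG day 6 oocytes gave 0.689%, 0.841% and 2.17% in replicates 1, 2 and 3, and IVG-NT day 6 oocytes 0.965%, 1.57% and 1.47%. IVG day 10 oocytes gave 0.409%, 0.488% and 2.74%, and IVG-NT day 10 oocytes 0.563%, 0.377% and 2.97%. In 4 of the 5 groups every rRNA-poor library was above every rRNA-rich one, and in the IVG-NT day 6 group replicate 2, one of the shallow libraries, was the highest. The group means were 2.72% ± 1.58 (SD, n = 3) for IVV, 1.23% ± 0.816 for IVG day 6, 1.34% ± 0.326 for IVG-NT day 6, 1.21% ± 1.33 for IVG day 10 and 1.30% ± 1.45 for IVG-NT day 10. The ranges of all 5 groups overlapped. The values describe the pools as a whole, and fewer cells of a type and less RNA per cell cannot be told apart in them.

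**Figure D1:**
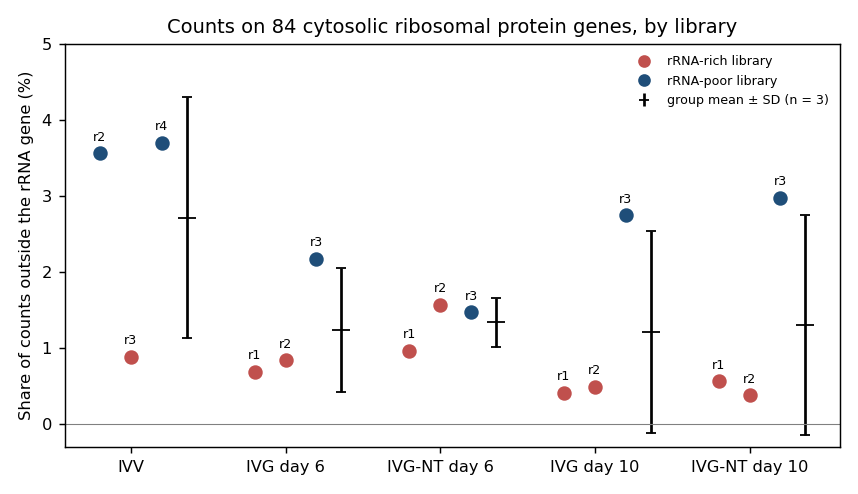
Share of counts outside the rRNA gene that fell on the 84 ribosomal protein genes (y axis, %), for each library (points, labelled by replicate) in the 5 groups (x axis), with the group mean and SD beside them. Points of the 6 rRNA-poor libraries span 1.47 to 3.70%, and those of the 9 rRNA-rich ones 0.377 to 1.57%.

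The balance of the subunits moved less than the total. Large-subunit genes had 1.29 to 1.86 times the counts of small-subunit genes in rRNA-rich libraries and 1.46 to 1.69 times in rRNA-poor libraries, so the ranges overlapped. The 3 P-stalk genes took 0.0143 to 0.172% and 0.111 to 0.288% of counts. The 8 paralogs made up 1.72 to 3.28% of the members' counts in rRNA-rich libraries and 5.19 to 6.11% in rRNA-poor libraries, with no overlap. This sum rested mainly on Rps27l, Rpl36al and Rpl39l, with 39452, 24604 and 11942 counts in IVV replicate 2. Set against their parent genes per length, these paralogs, Rpl22l1 and Rpl7l1 had higher median shares in rRNA-poor libraries. Rps27rt (20.1% against 45.7% in rRNA-rich libraries) and Rpl10l (1.76% against 4.14%) had lower ones.

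The comparison of the 9 rRNA-rich with the 6 rRNA-poor libraries, with the group in the model, gave more calls among the members than any comparison of groups. These counts come from unlike tests. The comparisons of groups set 3 libraries against 3, and their main model left out the kind of library. By the study's rule, a log2 fold change beyond 1 with P under 0.05, 63 of 83 members were lower in rRNA-rich libraries (75.9%, against 22.8% of all 21009 genes tested) and 0 were higher (against 12.3%). With an adjusted p under 0.05, 57 members were lower (68.7%, against 15.3% of all genes), and 0 were higher (against 8.41%). The median log2 fold change of the members was -2.10, against -0.54 over all genes, and 81 of 83 were negative. By class, 32 of 43 large-subunit genes, 24 of 30 small-subunit genes, all 3 P-stalk genes and 4 of 7 tested paralogs were called lower, with medians of -2.18, -1.88, -2.38 and -2.62. Within the groups, the median difference between rRNA-rich and rRNA-poor libraries was -2.36 for IVV (all genes -0.11), -1.53 for IVG day 6 (all genes -0.43), -0.43 for IVG-NT day 6 (all genes -1.58), -2.56 for IVG day 10 (all genes -0.17) and -2.83 for IVG-NT day 10 (all genes -0.12). In IVG-NT day 6, which held both shallow libraries, the members' median was thus above that of all genes, and 65.1% of members against 65.3% of all genes were lower. In all 5 groups 51 members were lower in the rRNA-rich libraries (61.4%, against 25.0% of all genes). Markers of the other cell types moved with the kind in part: of the tested markers, 4 of 8 of theca and stroma and 5 of 8 of macrophages were lower in rRNA-rich libraries, none of 19 granulosa markers was lower and 1 was higher, and of 20 oocyte markers 10 were lower and 5 higher. The part of these cells in the members' difference was not tested.

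**Figure D2:**
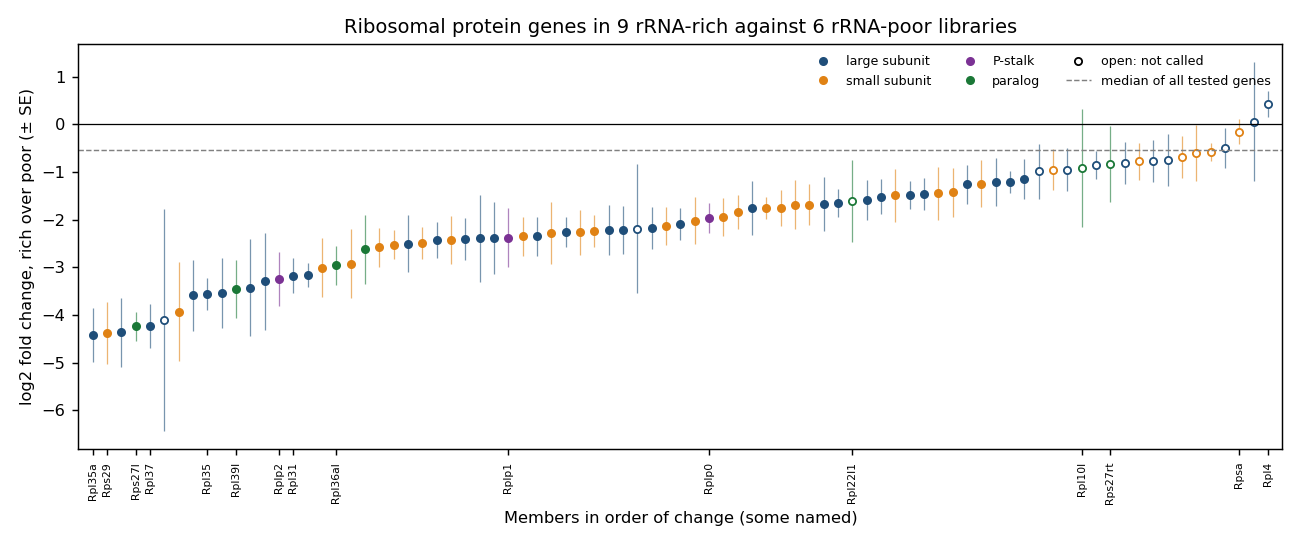
Log2 fold change of each tested member in the 9 rRNA-rich against the 6 rRNA-poor libraries (y axis, ± SE), members ordered by value (x axis, some named) and coloured by class, filled where called. The dashed line is the median of all genes tested (-0.54), and 81 of 83 members lie below 0.

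Rps27l, Rpl35, Rpl37 and Rpl31, among the members with the smallest p, were separated completely. Rps27l, a paralog of Rps27 and a target of p53, was at 23.3 to 55.6 CPM (median 34.7) in the 9 rRNA-rich and 384 to 925 CPM (median 759) in the 6 rRNA-poor libraries, a log2 fold change of -4.24 (SE 0.30, adjusted p = 9.7e-07). For Rpl35, which lies near the exit of the nascent peptide tunnel, the levels were 60.8 to 200.1 CPM (median 123) in the 9 rRNA-rich and 635 to 2315 CPM (median 1658) in the 6 rRNA-poor libraries, with -3.56 (SE 0.33, adjusted p = 8.6e-06). In these genes no rRNA-rich library reached the lowest rRNA-poor one. Rpl37 had 12.7 to 149 CPM (median 64.0) in the 9 rRNA-rich and 472 to 1618 CPM (median 961) in the 6 rRNA-poor libraries, with -4.23 (SE 0.46, adjusted p = 3.1e-05). Rpl31 had 16.4 to 106 CPM (median 40.9) in the 9 rRNA-rich and 185 to 555 CPM (median 366) in the 6 rRNA-poor libraries, with -3.17 (SE 0.36, adjusted p = 4.3e-05). In all, 23 members had every rRNA-rich library below every rRNA-poor one (27.7%, against 10.2% of all genes), and none the reverse.

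Not every member followed. Rpl4, a large-subunit protein that lines the peptide tunnel, had 197 to 706 CPM (median 619) in the 9 rRNA-rich and 339.6 to 515 CPM (median 359.9) in the 6 rRNA-poor libraries, and its log2 fold change was 0.43 (SE 0.28, adjusted p = 0.28). It was the only positive value beside that of Rpl21. It was the most abundant member by counts in IVV replicate 3 and in both rRNA-rich libraries of each day 10 group. Rpsa, the laminin receptor of the small subunit, had 118 to 286 CPM (median 198) in the 9 rRNA-rich and 128 to 381 CPM (median 220.1) in the 6 rRNA-poor libraries with a change of -0.15 (SE 0.26, adjusted p = 0.72), and its ranges overlapped almost entirely. Rpl21 gave a change of 0.06 (SE 1.25, adjusted p = 0.98) and is taken up with its copies further on. The other 17 members not called had negative values, from -4.11 for Rpl29, whose SE was 2.32, to -0.49 for Rpl8. Rps4x (-0.58 (SE 0.19, adjusted p = 0.042)), Rpl6 (-0.85 (SE 0.30, adjusted p = 0.053)) and Rps10, named after their values were seen, had a P under 0.05 but did not reach the fold limit.

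Members with known roles outside the bare count of the subunits spanned this range. Among the P-stalk genes, which recruit the translational GTPases, Rplp0 had 73.0 to 264 CPM (median 105) in the 9 rRNA-rich and 329 to 659.8 CPM (median 505) in the 6 rRNA-poor libraries and changed by -1.96 (SE 0.32, adjusted p = 7.5e-04), without overlap. Rplp1 changed by -2.38 (SE 0.62, adjusted p = 0.014) and Rplp2 by -3.24 (SE 0.56, adjusted p = 0.0011), both with overlapping ranges, and IVG-NT day 6 replicates 1 and 2 held 936 and 1112 CPM of Rplp1. Rpl5 and Rpl11, which bind MDM2 as part of a free particle with ribosomal RNA, changed by -1.21 (SE 0.23, adjusted p = 0.0024) and -1.52 (SE 0.36, adjusted p = 0.0087). Rps6 had 6.71 to 96.1 CPM (median 30.8) in the 9 rRNA-rich and 90.6 to 143 CPM (median 133) in the 6 rRNA-poor libraries, a change of -1.94 (SE 0.40, adjusted p = 0.0036), and its lowest values, 6.71 and 7.97 CPM, came from the shallow IVG-NT day 6 replicates 1 and 2. Rps27a, which is made as a fusion with ubiquitin, changed by -2.03 (SE 0.49, adjusted p = 0.0097). Rps19, mutated in Diamond-Blackfan anaemia, changed by -2.28 (SE 0.65, adjusted p = 0.021). Rpl38, known for its part in the translation of Hox mRNAs, changed by -4.36 (SE 0.72, adjusted p = 8.0e-04), and its 4.09 to 106 CPM in rRNA-rich libraries lay below all of its 132 to 698 CPM in rRNA-poor ones. Rpl10, one of the last proteins to join the large subunit, changed by -1.58 (SE 0.42, adjusted p = 0.016), and Rpl24, which bridges the subunits, by -1.15 (SE 0.43, adjusted p = 0.064), so that Rpl24 passed the fold rule but not the adjusted p.

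Transcript length moved with this difference. The principal transcript of a member had a median length of 878 bases, against 2906 for all tested protein-coding genes. Among the 1078 other protein-coding genes with a principal transcript of at most 1000 bases, the median log2 fold change was -2.95 and 68.4% were called lower, whereas the 14312 longer ones had a median of -0.07 and 14.1% called lower. The 52 short members had a median of -2.32 with 44 called, and the 31 longer members -1.46 with 19 called. Across the 83 members, Spearman's rho between the log2 fold change and the length was 0.44 for the principal transcript and 0.62 for the coding sequence, given as a description since genes are not independent replicates and share their libraries. The 78 mitochondrial ribosomal protein genes, which serve another ribosome, showed the same direction, with 58 of 78 called lower and a median of -2.41. They took 0.219 to 0.428% of counts in rRNA-rich and 1.02 to 1.30% in rRNA-poor libraries. The part of transcript length, depth and replicate in the difference was not tested.

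**Figure D3:**
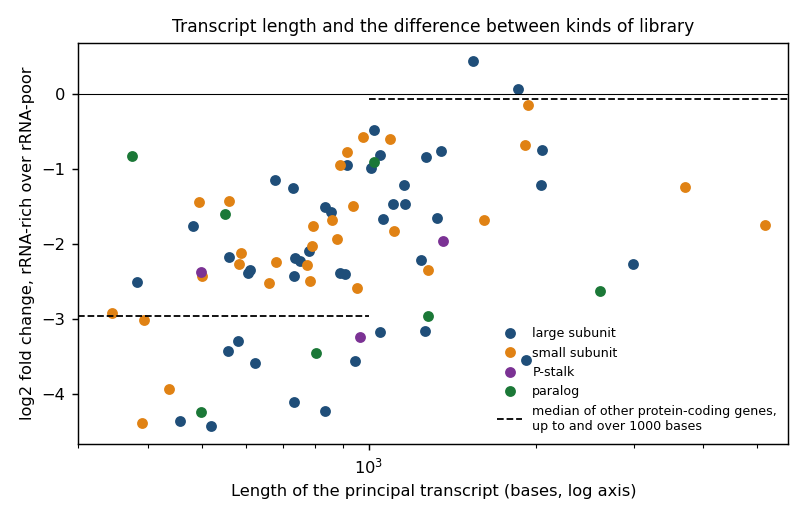
Length of the principal transcript of each tested member (x axis, bases, log axis) and its log2 fold change in rRNA-rich over rRNA-poor libraries (y axis), coloured by class. Dashed lines give the medians of the other protein-coding genes, -2.95 up to 1000 bases and -0.07 above, and shorter members lie lower.

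Oocytes grown in vitro were next compared with those grown in vivo. At the median, members were lower in IVG day 10 than in IVV oocytes, but only 1 of them met the call rule. Rps18, of the small subunit head, was the only member called. It had 146, 30.9 and 112 CPM in IVV replicates 2, 3 and 4 and 15.3, 11.9 and 35.8 CPM in IVG day 10 replicates 1, 2 and 3, a log2 fold change of -2.24 (SE 0.98, adjusted p = 1.0). The groups overlapped, since IVV replicate 3 lay below IVG day 10 replicate 3. In all, 1 of 83 members was called lower (1.20%, against 1.91% of all genes) and 0 higher (against 0.842%), and none had an adjusted p under 0.05. The members had a median log2 fold change of -1.31 against -0.20 for all genes, and 80 of 83 were negative (96.4%, against 57.0% of all genes). No member had all its IVG day 10 libraries on 1 side of all IVV libraries (of all genes, 6.53% were below and 5.35% above). The smallest p among the positive values belonged to Rpl21, with 1.24 (SE 1.42, adjusted p = 1.0). Rpl21 has many near-identical copies, taken up further on. Its sign is uncertain, since reads could be given to the gene or to a copy.

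The kind of library was unequal in this comparison, as 2 of 3 IVV but 1 of 3 IVG day 10 libraries were rRNA-poor. Among the rRNA-rich libraries alone (2 against 1) the median difference of the members was -0.87 (all genes 0.00) with 69 of 83 negative, and among the rRNA-poor ones (1 against 2) -0.56 (all genes -0.03) with 74 negative. With a term for the kind added to the model, the median was -0.76 and 5 members were called lower (6.02%, against 2.59% of all genes). The 5, named because they are few, were Rps26 (-1.68, SE 0.50, adjusted p = 1.0), Rpl35a (-2.45, SE 0.81, adjusted p = 1.0), Rps23, Rps14 and Rpl37, while Rps18 was not among them, at -1.62, SE 0.77, adjusted p = 1.0. Without IVG day 10 replicate 3, the rRNA-poor library of that group, 44 members were called lower (against 3.12% of all genes). Without IVV replicate 3, 3 were called lower (against 1.47%) and 1 higher (against 1.97%), and without any one of the other 4 libraries the count was 0. Without IVG day 10 replicate 3 the kinds were still less balanced, as both IVG day 10 libraries left were rRNA-rich. DESeq2 called 4 members lower (Rps18, Rps27rt, Rps23 and Rps26, against 2.74% of all genes).

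IVG-NT day 10 oocytes, grown with NT-4, gave a similar account against the same IVV libraries. Rps23, which forms part of the decoding centre, had 126, 67.0 and 121 CPM in IVV replicates 2, 3 and 4 and 9.13, 5.41 and 38.1 CPM in IVG-NT day 10 replicates 1, 2 and 3, without overlap, and its log2 fold change was -2.51 (SE 1.03, adjusted p = 1.0). It was the 1 member called lower (1.20%, against 2.67% of all genes), while 0 were higher (against 0.624%) and none passed the adjusted p. Every IVG-NT day 10 library was below every IVV library in 3 of 83 members, namely Rps23, Rpl22 and Rpsa on normalised log2 CPM (3.61%, against 7.04% of all genes) and above it in 0 (against 4.57%). The median of the members was -1.01 against -0.19, with 81 of 83 negative (97.6%, against 56.4%). Within rRNA-rich libraries the median was -0.79 (72 negative, all genes 0.00), within rRNA-poor ones -0.34 (68 negative, all genes -0.05), and with the kind as a covariate -0.66 with 4 members (Rps23, Rpl35a, Rps26 and Rps18) called lower (4.82%, against 3.35%). The smallest p among the positive members was again that of Rpl21, at 1.56 (SE 1.43, adjusted p = 1.0), with the same uncertainty from its copies. Without IVG-NT day 10 replicate 3, which left 2 rRNA-rich libraries in that group, 45 members were called lower (against 3.60% of all genes). Without IVV replicate 3, 4 were lower (against 1.91%) and 1 higher (against 1.79%), and without any one of the other 4 libraries the count was 0.

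The direct comparison of IVG-NT with IVG oocytes asked for the effect of NT-4 at each day. At day 10, 0 of 83 members were called in either direction by edgeR (against 0.438% of all genes higher and 0.804% lower), 0 had an unadjusted p under 0.05 and DESeq2 called 0. The members' median was 0.20 (all genes 0.01), and their log2 fold changes ran from -0.75 to 0.74 with SEs of 0.53 to 2.45, which limits what could be detected. The sign of the median rested on single libraries. It was -1.44 without IVG-NT day 10 replicate 3, with 3 members called lower (against 0.587% of all genes), and 1.68 without IVG day 10 replicate 3, with 6 called higher (against 0.599%). It was also negative without IVG day 10 replicate 1 (-0.21) or 2 (-0.20). The groups overlapped in all 83 members (of all genes, 1.66% were separated upward and 1.93% downward). Rps20, the positive member with the smallest p, had 25.9, 34.6 and 158 CPM in IVG and 59.1, 28.2 and 205 CPM in IVG-NT replicates 1, 2 and 3, with 0.53 (SE 0.88, adjusted p = 1.0). The groups overlapped, and the rRNA-poor replicate 3 was the highest in both. Rpl3, the negative member with the smallest p, gave -0.75 (SE 0.77, adjusted p = 1.0). Within rRNA-rich libraries the median was -0.03 and within rRNA-poor ones 0.19.

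At day 6, the member called was Rpl23, a large-subunit protein, which was lower with NT-4. It had 41.5, 96.7 and 71.1 CPM in IVG and 18.7, 4.67 and 12.7 CPM in IVG-NT replicates 1, 2 and 3, so the groups did not overlap, and its log2 fold change was -2.62 (SE 1.08, adjusted p = 0.39). The call of Rpl23 was lost without IVG day 6 replicate 2 and without IVG-NT day 6 replicate 2 or 3. It made 1 of 83 lower (1.20%, against 4.83% of all genes) and 0 higher (against 6.74%). Rpl10a was the other member with every IVG-NT library below every IVG library on normalised log2 CPM (2.41% with Rpl23, against 7.44% of all genes), and Rpl3 the 1 member above (against 1.01%). Rps28 had the smallest p of the positive members, 2.75 (SE 1.76, adjusted p = 0.53), and its 411 CPM in IVG-NT replicate 2 stood far above 36.9 and 40.5 CPM in replicates 1 and 3. The members' median was 0.07 over all libraries (all genes -0.27). It was 0.56 within rRNA-rich libraries, which include both shallow ones, and -0.57 within the rRNA-poor pair, while all genes had -1.09 and -0.14 in the same order. With 1 library left out the members' median ran from -0.29 (without IVG day 6 replicate 1) to 0.82 (without IVG day 6 replicate 3). With the kind as a covariate, 6 members were higher, led by Rpl12 (2.18, SE 0.72, adjusted p = 0.26) and Rps28, and 4 lower, namely Rps6 (-2.50, SE 0.64, adjusted p = 0.26), Rpl23, Rps25 and Rpl10a (7.23% and 4.82%, against 7.75% and 8.02% of all genes). That fit assumes 1 common NT-4 difference for both kinds. Rpl12 and Rps28 differed by 2.65 and 3.78 within rRNA-rich libraries but by -0.32 and -0.40 within the rRNA-poor pair. The 4 lower members were negative in both kinds. The NT-4 difference at day 10 minus that at day 6 was called for 0 members (against 2.09% of all genes higher and 4.28% lower), with 0 at an unadjusted p under 0.05 and 0 by DESeq2. The smallest p values were those of Rpl23, at 2.16 (SE 1.45, adjusted p = 0.91), and Rpl3, at -1.64 (SE 1.09, adjusted p = 0.91).

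Oocytes of day 10 and day 6 were compared within each culture. Without NT-4, 0 members were called by edgeR (against 1.69% of all genes higher and 1.21% lower), 0 had an unadjusted p under 0.05 and DESeq2 called 0. With NT-4, edgeR called 0 members (against 5.45% higher and 7.21% lower) and 0 at an unadjusted p under 0.05. DESeq2 called Rpl10l (-3.18) and Rps23 (-2.29) lower. No share of all genes called by DESeq2 is set beside these 2 calls, so they are no result about the members. The medians of the members were -0.04 and 0.14. With 1 library left out, the first ran from -1.60 (without IVG day 10 replicate 3) to 0.64 (without IVG day 6 replicate 3) and the other from -1.83 (without IVG-NT day 10 replicate 3) to 0.54 (without IVG-NT day 10 replicate 2). Of 83 members 53.0% and 43.4% were negative, against 46.8% and 39.2% of all genes. Rps2 lay above and Rpl10l below in every day 10 library without NT-4 (of all genes, 4.47% above and 2.95% below), and Rpl3 below with NT-4 (of all genes, 1.24% below and 9.74% above). The rRNA-rich and the rRNA-poor libraries went opposite ways. With NT-4, day 10 was below day 6 in the rRNA-rich libraries, with a median of -1.09 and 63 of 83 negative (all genes 1.42), and above it in the rRNA-poor pair, with a median of 1.23 and 80 of 83 positive (all genes 0.09). Without NT-4 the medians were -0.83 (71 negative, all genes 0.18) and 0.30 (61 positive, all genes 0.00). With the kind as a covariate, 16 members were lower at day 10 with NT-4 (19.3%, against 8.51% of all genes). They were led by Rps28 (-5.31, SE 1.56, adjusted p = 0.22) and Rps23 (-2.67, SE 0.84, adjusted p = 0.23). That fit assumes 1 common day difference for both kinds, which the opposite medians with NT-4 do not bear out. Within rRNA-rich libraries, which include both shallow ones at day 6, Rps28 differed by -5.93 and Rps23 by -3.35. Within the rRNA-poor pair the differences were 1.56 and 0.04. Without NT-4, 1 member was lower with the covariate, Rps25 (-1.37, SE 0.60, adjusted p = 0.96, against 1.98%). In the fit without the covariate the smallest p values without NT-4 belonged to Rpsa, at 0.68 (SE 0.55, adjusted p = 1.0), and Rpl10l, at -2.41 (SE 1.75, adjusted p = 1.0), and with NT-4 to Rpl23, at 1.71 (SE 1.05, adjusted p = 0.50), and Rps23, at -1.94 (SE 1.01, adjusted p = 0.43).

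This difference between the kinds was also fitted with a mean for each group and kind, which left 5 residual degrees of freedom. Each in vitro group had 1 rRNA-poor library and IVV 1 rRNA-rich one, so every contrast used lone libraries that were assumed to vary like those of the other groups and kinds. The fit used the same libraries as these medians and is no independent support for them. For IVG-NT day 10 against day 6, 41 of 83 members were called with a lower difference in rRNA-rich libraries, against a single rRNA-poor library at each day (49.4%, against 3.30% of all genes) and 0 a higher one (against 13.0%), and 0 passed the adjusted p. Rplp2 gave -5.03 (SE 0.73, adjusted p = 0.056). Its levels in rRNA-rich libraries were 396 and 345 CPM at day 6 and 39.8 and 23.7 CPM at day 10, while the rRNA-poor library went from 314 to 868 CPM. For Rps29, a zinc-binding small-subunit protein, the difference was -5.70 (SE 1.04, adjusted p = 0.063). Without NT-4, 4 members (Rplp2, Rps29, Rplp1 and Rpl21) were called lower (against 0.762%) and 0 higher (against 1.45%). For IVG-NT against IVG at day 6, 13 members had a higher difference in rRNA-rich libraries (15.7%, against 2.77%) and 2, Rps6 and Rpl4, a lower one (against 12.2%). Against IVV, 3 and 4 members were called for IVG day 10 and IVG-NT day 10 (Rpl21, Rplp2 and Rpl41 in both, and Rpl29 in the latter), with a background of 1.60% higher and 1.26% lower, and 1.33% and 1.12%. For IVG-NT against IVG at day 10 the count was 0 (against 0.333% and 0.428%). The rRNA-rich IVG-NT day 6 libraries were the 2 shallowest of the series, with 13338 and 10991 genes detected against 15483 to 22966 in the others, and the part of depth in the difference was not tested.

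**Figure D4:**
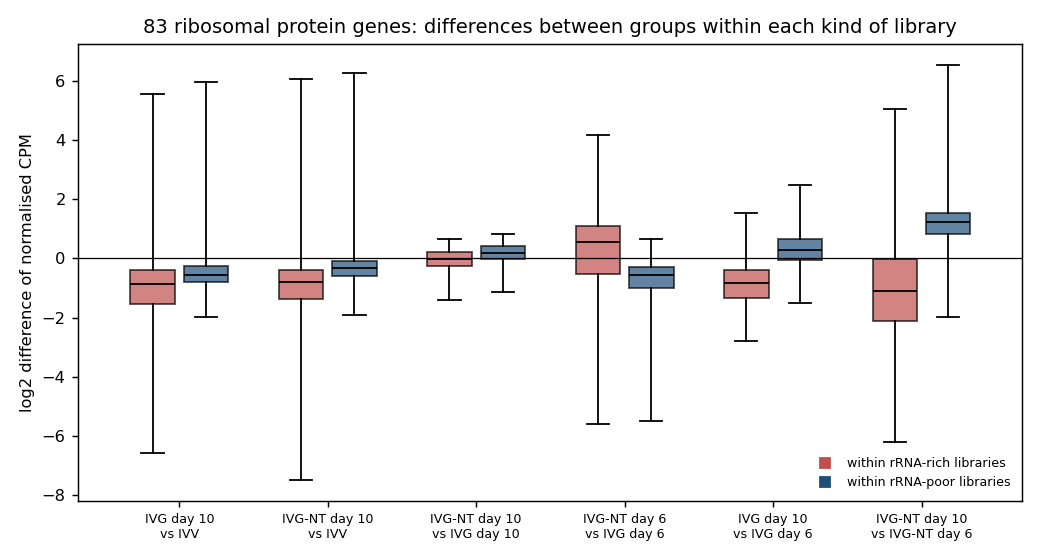
Log2 difference of normalised CPM between groups (y axis) for the 83 tested members, computed within the rRNA-rich and within the rRNA-poor libraries for each of 6 comparisons (x axis). Boxes give the quartiles and median and whiskers the extremes over members, and for IVG-NT day 10 against day 6 the medians are -1.09 and 1.23.

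Levels among the members were compared as CPM per kilobase of exon. Among the highest means over the 15 libraries were those of Rplp1 (1059.96), Rps29 (848), Rpl35 (585) and Rpl36 (521). Neighbours in this order had ranges that overlapped, as Rplp1 ran from 92.9 to 2328 and Rps29 from 23.1 to 2685. The lowest were Rpl7l1 (5.88), Rpl9 (3.74), Rpl10l (3.59), Rpl29 (2.11) and Rpl3l (0.165). The place of Rpl29 is uncertain, as its near-identical copies, taken up further on, had more counts than the gene in the median library. Levels of other members with such copies share this limit, since reads could be given to the gene or to a copy. The 90th percentile of the mean levels was 18.2 times the 10th over all libraries, 27.0 times in the rRNA-poor and 13.6 times in the rRNA-rich ones, and the ratio taken in each library had an SD of 25.6 over the 15. The order of the 76 members detected everywhere was stable among rRNA-poor libraries, where Spearman's rho between 2 libraries was 0.93 to 0.99. It was 0.41 to 0.97 among rRNA-rich libraries and 0.56 to 0.83 between the kinds, given as a description over genes.

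Paralog pairs were set side by side because their coding sequences differ enough to be told apart in part. Rps27 (chr3:90212522-90213651) and Rps27l (chr9:66946086-66949516) each have 252 coding bases without the stop codon and differ at 60 bases, 53 of them at the last base of a codon. Rpl39 (chrX:37082520-37085402) and Rpl39l (chr16:10170226-10174911), a copy best known from testis, have 153 bases and differ at 23. Shown are those of the principal GENCODE vM21 transcripts (GRCm38), on the sense strand, with differing bases in capitals.
Rps27: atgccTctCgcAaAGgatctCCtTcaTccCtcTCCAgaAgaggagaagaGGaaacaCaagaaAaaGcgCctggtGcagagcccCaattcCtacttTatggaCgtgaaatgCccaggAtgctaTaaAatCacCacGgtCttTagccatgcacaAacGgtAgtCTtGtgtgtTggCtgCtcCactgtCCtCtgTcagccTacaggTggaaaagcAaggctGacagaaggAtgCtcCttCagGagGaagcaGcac
Rps27l: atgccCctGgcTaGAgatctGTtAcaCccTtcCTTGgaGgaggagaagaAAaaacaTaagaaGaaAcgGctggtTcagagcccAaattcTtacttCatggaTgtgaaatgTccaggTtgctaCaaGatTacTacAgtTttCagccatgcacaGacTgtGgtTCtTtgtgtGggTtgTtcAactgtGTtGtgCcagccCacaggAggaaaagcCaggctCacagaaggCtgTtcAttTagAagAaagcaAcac
Rpl39: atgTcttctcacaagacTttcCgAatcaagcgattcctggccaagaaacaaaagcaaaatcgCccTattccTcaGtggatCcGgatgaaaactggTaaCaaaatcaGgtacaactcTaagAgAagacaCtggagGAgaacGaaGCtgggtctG
Rpl39l: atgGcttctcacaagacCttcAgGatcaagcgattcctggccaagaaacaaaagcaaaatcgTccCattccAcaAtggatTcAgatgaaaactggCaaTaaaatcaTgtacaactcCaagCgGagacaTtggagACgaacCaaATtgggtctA
Rps27rt, a retrocopy, is identical to Rps27 over the 252 bases, so counts of this pair are uncertain and could be split by the counting.

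Rps27l made up 80.4 to 89.2% (median 83.5%) of the per-length sum of Rps27l and Rps27 in the 6 rRNA-poor and 14.4 to 92.9% (median 66.1%) in the 9 rRNA-rich libraries. It was the larger part of the sum in 12 of 15 libraries, and the 3 exceptions were IVG day 6 replicate 2 (49.0%) and IVG-NT day 6 replicates 1 (38.3%) and 2 (14.4%). The counts of Rps27rt, identical to Rps27 in its coding sequence, were not in this sum. Adding them to Rps27 would lower the shares of Rps27l. Rpl36al, a copy of Rpl36a, was 79.9 to 86.9% (median 83.2%) and 63.4 to 94.6% (median 70.9%) of its pair. It exceeded Rpl36a in all 15 libraries with the length of all exons, but in 7 with the length of the principal transcript. Rpl39l reached 44.7 to 52.1% (median 46.4%) of its pair in rRNA-poor libraries, above all rRNA-rich ones, which ran from 1.14 to 37.6%. Its lowest share, 1.14%, was in the shallow IVG-NT day 6 replicate 2. Rpl22l1 was 21.9 to 36.6% (median 31.3%) and 7.63 to 63.9% (median 18.4%) of the sum with Rpl22, with overlap. Rpl7l1 gave 10.7 to 18.2% (median 16.1%) and 0 to 23.9% (median 12.1%), and Rpl10l, which stands in for X-linked Rpl10 in male meiosis, 1.16 to 7.34% (median 1.76%) and 0 to 29.4% (median 4.14%). Rpl3l was at 0 in 14 libraries. With the length of the principal transcript the medians in rRNA-poor and rRNA-rich libraries moved to 27.6% and 17.2% for Rpl39l and to 53.5% and 36.4% for Rpl22l1, which was then the larger part of its pair in 8 libraries rather than 2. The same length gave 73.3% and 51.3% for Rps27l, 60.6% and 43.0% for Rpl36al, 10.0% and 7.41% for Rpl7l1, and 0.739% and 1.76% for Rpl10l. In mean level per length of all exons over the 15 libraries, Rps27l stood at 378 beside 98.1 for Rps27 and 37.7 for Rps27rt, Rpl36al at 179.99 beside 43.8 for Rpl36a, Rpl39l at 137 beside 179.9 for Rpl39, and Rpl22l1 at 7.92 beside 18.2 for Rpl22. The parents Rpl3, Rpl7 and Rpl10 stood at 13.8, 38.0 and 66.4, each above its paralog.

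**Figure D5:**
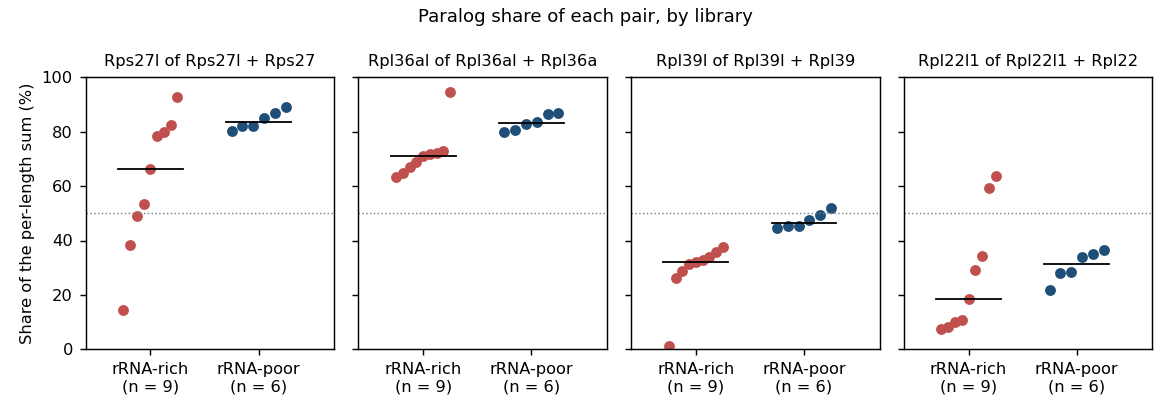
Share of a paralog in the per-length sum of its pair (y axis, %), for each library (points) of the 9 rRNA-rich and 6 rRNA-poor libraries (x axis), with the median as a line. Rps27l and Rpl36al lie above 50% in all rRNA-poor libraries, and Rpl39l lies at 44.7 to 52.1% there.

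Near-identical copies complicate the counts. Ribosomal protein genes have many processed pseudogenes, and 550 annotated pseudogenes matched the coding sequence of a member with at least 95% identity over at least 80% of its length. At least 1 such copy was found for 77 of 84 members, with a median of 4 and a maximum of 56 for Rpl21. Together the copies took 19.0 to 25.0% of the counts summed over members and copies. For 10 members, among them Rpl17, Rpl21, Rpl29, Rpl35a, Rps2 and Rps28, the copies had more counts than the gene in the median library. These members are uncertain, since a read that fits both could be given to either. Rpl21 itself had 2.56 and 1.27 CPM in the rRNA-poor IVV libraries and 1.59 in IVG-NT day 6 replicate 3, but 75.7, 131 and 144 CPM in the other 3 rRNA-poor libraries. Its copies, led by the pseudogene Gm10163, held 1175, 1256 and 498 CPM in the former and 736, 684 and 853 CPM in the latter. Gene and copies together were at 499.99 to 1258 CPM in rRNA-poor and 62.6 to 421 CPM in rRNA-rich libraries, without overlap. For Rpl29 the gene had at most 13.9 CPM, and gene and copies 77.3 to 193 and 26.9 to 274 CPM.

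Genes related to the members were read out in the same fits. Among ribosomal proteins outside the naming rule, lower levels in rRNA-rich libraries were called for Fau, a fusion of a ubiquitin-like protein and a small-subunit protein, at -3.35 (adjusted p = 1.2e-05), and for Rack1, a scaffold on the small subunit, at -1.83 (adjusted p = 5.9e-04). Rps3a1 was not called, at -0.70 (adjusted p = 0.18). Of 17 other TOP mRNAs, 5 were lower and 1 higher (against 22.8% and 12.3% of all genes). Their median of -0.52 lay near the -0.54 of all genes. The elongation factor gene Eef2 was the one higher, at 1.35 (adjusted p = 0.0060), while the nascent chain factors Naca and Btf3 were lower, at -2.06 (adjusted p = 7.7e-05) and -1.81 (adjusted p = 1.3e-04). Eef1a1, the main elongation factor, gave 0.47 (adjusted p = 0.18). Of 16 genes that regulate TOP mRNA translation, 8 were higher and 2 lower (against 12.3% and 22.8% of all genes), with a median of 1.09. Tsc1 and Tsc2, which restrain mTOR, were at 3.16 (adjusted p = 9.2e-05) and 2.33 (adjusted p = 0.032), Larp1 at 1.43 (adjusted p = 0.064) and Mtor at 1.40 (adjusted p = 0.089), while the translation repressor Eif4ebp1 was lower at -3.94 (adjusted p = 0.0086). Of 143 tested ribosomal protein pseudogenes, 72 were lower and 2 higher (against 22.8% and 12.3% of all genes), with a median of -1.88. The part of transcript length in the differences of these lists was not tested. Against IVV, IVG day 10 oocytes had 1 of the 16 regulators called higher and 0 lower (against 0.842% and 1.91% of all genes). In the same comparison 0 of the 17 TOP mRNAs or the 78 mitochondrial genes were called in either direction.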

How the data were processed

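The deposited counts are whole numbers of reads per gene for each of 15 libraries. The authors removed adaptor and low-quality reads and aligned the rest to mm10 with HISAT2. The study names StringTie for transcript assembly and FPKM values. How the whole-number counts were made and the annotation release are not given in the sources used here, and the series also names FastQC and edgeR. A table of the whole series that repeats the counts was not used. Gene IDs were matched to symbols and biotypes in GENCODE vM21 (55141 of 55401).

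The counts were filtered (filterByExpr) and TMM-normalised, and edgeR 4.0.16 (R 4.3.3) quasi-likelihood tests on all 15 libraries were adjusted by Benjamini-Hochberg over the 21009 genes tested. The study's call rule was kept, a log2 fold change beyond 1 with P under 0.05. The rRNA-rich comparison used group and kind (rRNA share over 5%). Copies were found with BLAST+ 2.17.0. Tests were tried on simulated data with the same spread for all genes and large known changes. For the comparisons of groups these data held no difference between the kinds of library, so the trial does not cover that difference. Depth was 5954262 to 55593251 counts, and without molecular identifiers, counting precision covers reads, not molecules. Members, lists and the split by rRNA were chosen with earlier results of these data known. Genes were named per comparison as the 5 called with the smallest p in each direction (or the 1 with the smallest p), the 5 highest and lowest levels, paralog pairs and 12 genes by role; some of them are not reported here. Deviations from the group mean correlated between libraries of the same number (over 0.1 in every pair) in 2 comparisons. These were IVG-NT against IVG at day 10 (0.37, 0.41 and 0.73) and IVG day 10 against day 6 (0.23, 0.15 and 0.54). Replicate 3 was the rRNA-poor library of every in vitro group, so the correlations cannot tell a pairing from the kind of library. Alternatives were DESeq2 1.42.0, its size factors, no filter, other libraries or covariates, the replicate block and each library left out.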

Additional observations from a re-analysis of the deposited data

Results flagged for a closer look

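Among the 9 rRNA-rich libraries, IVG-NT day 6 replicate 2 stood apart with 1.57% of counts on the ribosomal protein genes, and the gap to its nearest neighbour was 0.508 of the range of the 9. Chance marks about 1 in 20 groups in this way, and the groups of 3 were not examined.

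The test of the difference between rRNA-rich and rRNA-poor libraries called members in 5 of the 6 comparisons of groups, by a log2 difference beyond 1 with P under 0.05 and none by adjusted p (edgeR, quasi-likelihood). Every such contrast included lone libraries, 1 rRNA-poor library in each in vitro group and 1 rRNA-rich library in IVV, which were assumed to vary like the others. The counts were 3 for IVG day 10 against IVV, 4 for IVG-NT day 10 against IVV, 15 for IVG-NT against IVG at day 6, 4 for IVG day 10 against day 6 and 41 for IVG-NT day 10 against day 6. The share of all genes called in each comparison is given with these counts in the Results.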

How the results depend on the processing

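The comparison of rRNA-rich with rRNA-poor libraries kept its direction under every alternative run, with 57 to 74 members called and 54 to 70 when 1 library was left out. The counts of calls in this section show only how the calls moved with the setting. They are not set against the share of all genes called and are no result about the members. The counts in the comparisons of groups were small and moved. For IVG day 10 against IVV (1 called) they were 3 without the filter, 4 with the DESeq2 Wald test, 5 with a covariate for the kind of library and 4 in rRNA-rich libraries only. For IVG-NT day 10 against IVV (1) they were 2 with DESeq2 size factors, 3 with the Wald test, 4 with the covariate and 3 in rRNA-rich libraries. For IVG-NT against IVG at day 6 (1) they were 0 with DESeq2 size factors, the Wald test or only the compared groups, 2 without the filter, 10 with the covariate and 11 in rRNA-rich libraries. For IVG day 10 against day 6 (0) they were 1 with only the compared groups, 1 with the covariate and 7 in rRNA-rich libraries. For IVG-NT day 10 against day 6 (0) they were 1 with DESeq2 size factors, 2 with the Wald test, 16 with the covariate, 27 in rRNA-rich libraries and 1 without both shallow libraries. For the NT-4 difference between days (0) they were 4, 3 and 1 with the covariate, in rRNA-rich libraries and without the shallow libraries. The causes were not tested.

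With the replicate block the counts were 8 for IVG day 10 against IVV, 4 for IVG-NT day 10 against IVV and 3 for IVG-NT against IVG at day 6, and the block changed no other count of calls by over 1.5 times. The correlations passed 0.1 in every pair only in the 2 comparisons named in the methods, where the count stayed 0 with the block. They cannot tell a pairing of the libraries from a shared kind of library. Libraries of the same number had correlations of 0.083, 0.11 and 0.33 for IVG-NT against IVG at day 6. For IVG-NT day 10 against day 6 they were 0.080, 0.066 and 0.26. For the comparisons with IVV they were -0.28 to -0.52 over numbers 2 and 3, where the same number went with opposite kinds of library.

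Leaving out 1 library gave 0 to 44 calls for IVG day 10 against IVV, 0 to 45 for IVG-NT day 10 against IVV, 0 to 6 for IVG-NT against IVG at day 10, 0 to 3 at day 6, 0 to 7 for IVG day 10 against day 6, 0 to 11 for IVG-NT day 10 against day 6 and 0 to 3 for the NT-4 difference between days. The highest counts came without replicate 3, the rRNA-poor library of an in vitro group: IVG day 10 for 44, 6 and 7, IVG-NT day 10 for 45 and 11, and IVG-NT day 6 for 3 at day 6. Of 340 values of named genes under alternatives, 302 kept direction and side of the threshold, 21 lost and 13 gained a call and 4 reversed. In rRNA-rich libraries only, Rpl21 reversed to -1.76 for IVG day 10 against IVV and -1.33 for its NT-4 counterpart. With 1 library left out, Rpl21 ran from -0.27 (without IVG day 10 replicate 3) to 4.72 (without IVV replicate 3), and Rps20 for IVG-NT against IVG at day 10 from -0.64 (without IVG-NT day 10 replicate 3) to 1.69 (without IVG day 10 replicate 3). With near-identical copies added, the share in IVG-NT day 6 oocytes was 1.74%. The rRNA-poor libraries alone left 1 residual degree of freedom and were not fitted.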
